A study of Mus musculus with 6 samples.

Results

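CpG shores, the stretches of sparser CpGs that flank CpG-dense DNA, were compared between Tet2 knockout (KO) and wild-type (WT) germinal centre B cells from the spleens of C57BL/6 mice. Enhanced reduced representation bisulfite sequencing, which reads CpG-rich restriction fragments at high depth, gave 3 Tet2 KO and 3 Tet2 WT libraries. The genome was divided into tiles of 1 kb, and a position, meaning a CpG on one strand, was used where at least 10 reads covered it in all 6 libraries. An autosomal tile with 40 or more positions was called dense. A tile with 3 to 19 positions that lay 1 or 2 tiles from a dense one on the same chromosome was called a shore tile, whatever its methylation. Positions count covered CpGs only, so a tile with few of them can also be CpG-rich DNA that the reads covered poorly. How many shore tiles are of that kind was not tested. There were 5306 shore tiles among 179605 tiles with a covered position. Of these, 3933 lay directly beside a dense tile (distance 1) and 1373 had 1 tile in between (distance 2). They stood beside 4080 of the 8175 dense tiles, and 63 had a dense tile within 2 tiles on both sides. The labels do not give the type of Tet2 deletion, the cells in which it acts, the age or sex of the animals, the sort that isolated the cells or whether the replicates are separate animals, so the tests measure the spread between these libraries.

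CpG-dense DNA around gene starts is usually kept free of methylation, while the sparse CpGs of the surrounding genome are usually methylated. Shores are the flanks where one state gives way to the other, and their methylation is known to vary between cell types more than that of the dense core. Tet2 encodes a dioxygenase that oxidises 5-methylcytosine to 5-hydroxymethylcytosine and further products, a step towards loss of the mark, and it is often mutated in lymphoid and myeloid malignancies. Bisulfite reads 5-methylcytosine and 5-hydroxymethylcytosine alike, so each level given here is the sum of both.

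The gene starts beside 6 of the shore tiles that differed between KO and WT cells are shown first, because each lies in the CpG-dense core, or at its edge, from which the distance to the shore is counted. They are promoter windows of 300 bases, 250 before the start and 50 after it, from RefSeq on GRCm38.p6. Capitals mark the CpGs with a covered position in all 6 libraries. The shore tile named for each gene lies outside the printed window.
Phf23, chr11:69997212-69997511, plus strand: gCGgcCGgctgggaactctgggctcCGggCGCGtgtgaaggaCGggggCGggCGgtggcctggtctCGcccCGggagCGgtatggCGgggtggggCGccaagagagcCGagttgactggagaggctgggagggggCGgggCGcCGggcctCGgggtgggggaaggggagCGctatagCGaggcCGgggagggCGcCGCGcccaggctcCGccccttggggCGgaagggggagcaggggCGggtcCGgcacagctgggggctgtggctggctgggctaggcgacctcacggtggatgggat
Runx3, chr4:135152295-135152594, plus strand: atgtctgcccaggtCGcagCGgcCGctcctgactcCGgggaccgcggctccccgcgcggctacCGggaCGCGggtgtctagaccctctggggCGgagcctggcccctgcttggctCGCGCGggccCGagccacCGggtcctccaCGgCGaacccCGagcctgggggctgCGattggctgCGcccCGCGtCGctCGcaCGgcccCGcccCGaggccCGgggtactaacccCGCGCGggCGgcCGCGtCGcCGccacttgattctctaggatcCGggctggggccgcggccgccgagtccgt
Slc35g1, chr19:38395730-38396029, plus strand: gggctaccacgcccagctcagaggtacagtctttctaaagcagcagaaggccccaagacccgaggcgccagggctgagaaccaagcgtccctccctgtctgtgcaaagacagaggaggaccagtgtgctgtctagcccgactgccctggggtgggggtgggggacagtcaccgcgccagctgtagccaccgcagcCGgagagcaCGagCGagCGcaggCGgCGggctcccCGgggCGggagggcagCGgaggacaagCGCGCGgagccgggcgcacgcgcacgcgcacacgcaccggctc
Stim2, chr5:53998273-53998572, plus strand: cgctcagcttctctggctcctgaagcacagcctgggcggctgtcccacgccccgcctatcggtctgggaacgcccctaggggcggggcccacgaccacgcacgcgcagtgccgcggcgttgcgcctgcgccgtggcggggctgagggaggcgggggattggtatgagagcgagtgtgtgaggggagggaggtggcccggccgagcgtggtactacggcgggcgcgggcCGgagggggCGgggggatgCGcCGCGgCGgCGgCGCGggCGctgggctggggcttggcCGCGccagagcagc
Rab35, chr5:115631737-115632036, plus strand: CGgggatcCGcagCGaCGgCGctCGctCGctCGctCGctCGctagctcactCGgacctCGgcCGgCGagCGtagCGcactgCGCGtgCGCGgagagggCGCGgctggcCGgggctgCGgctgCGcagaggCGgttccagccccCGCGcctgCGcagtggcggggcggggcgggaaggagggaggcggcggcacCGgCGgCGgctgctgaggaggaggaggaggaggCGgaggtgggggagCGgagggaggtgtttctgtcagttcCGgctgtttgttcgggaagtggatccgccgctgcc
Ung, chr5:114130185-114130484, plus strand: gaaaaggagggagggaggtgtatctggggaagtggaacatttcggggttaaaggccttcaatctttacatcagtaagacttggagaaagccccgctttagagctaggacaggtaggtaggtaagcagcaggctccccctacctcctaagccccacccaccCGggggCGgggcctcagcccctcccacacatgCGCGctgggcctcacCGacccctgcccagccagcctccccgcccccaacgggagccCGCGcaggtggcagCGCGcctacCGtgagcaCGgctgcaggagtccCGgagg
The Phf23 window holds 30 CpGs, of which 28 were covered, and the Runx3 window holds 45, of which 35 were covered. Coverage was poorer in the Stim2 window, with 12 of 39 CpGs, and in the Slc35g1 window, with 12 of 28. Over all 21262 windows of that RefSeq table the median was 13 CpGs. Covered positions in each of the 6 printed windows were almost free of methylation in both genotypes. The highest KO mean was 0.473%, in the Slc35g1 window, and the highest WT mean was 0.200%, in the Phf23 window.

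The libraries were similar in depth. KO libraries held 180397494 to 195582108 reads over listed positions and WT libraries 174375503 to 203863392, and a shore tile had a median of 715 to 885.5 reads per library. In the Tet2 gene, 6 neighbouring positions (chromosome 3, 133486189 to 133486297, GRCm38) appeared in none of the KO files but in each WT file, with 32 to 168 reads, while 108 positions of the gene were listed in all 6. The labelled cell type could not be checked from promoters. Of the 6 germinal centre B-cell markers, Bcl6 and Pax5 had a promoter with 3 or more covered positions, both below 2% in both groups, but 5 of the 6 covered T-cell promoters were below 10% too. The sixth, at Zap70, a T-cell receptor kinase, was at 72.4%, 75.3% and 71.7% in the KO libraries, against 62.7%, 60.8% and 59.9% in the WT libraries. Of the 2 covered erythroid promoters, Epor, the erythropoietin receptor gene, was at 63.1%, 62.0% and 58.8% in the KO libraries, against 47.3%, 34.7% and 34.2% in the WT libraries. Zap70 and Epor were both higher in KO cells without overlap. The other covered erythroid promoter, at Tal1, averaged 1.85% in KO cells and 0.823% in WT cells, with overlapping libraries. The 3 covered myeloid promoters had KO means of 0.0708% to 9.20% and WT means of 0.0632% to 11.5%, the 3 covered endothelial ones had KO means of 0.384% to 15% and WT means of 1.11% to 12.1%, and no natural killer promoter was covered. The part of other cell types in the shore levels was not tested. WT replicate 1 was the lowest of the 6 libraries in 36.5% of the shore tiles tested below, and values without it are given beside the main results.

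Methylation of shores was higher in KO cells at both distances, and the difference was larger farther from the dense tile. The mean level of shore tiles was 26.8%, 26.8% and 26.7% in KO replicates 1, 2 and 3, against 24.3%, 25.6% and 25.6% in the WT replicates. Every KO library lay above every WT library. The group means were 26.8 ± 0.0934% in KO cells and 25.2 ± 0.788% in WT cells (SD, n = 3 each), 1.58 percentage points apart and 1.13 points apart without WT replicate 1. An exact two-sided permutation test of the 6 library values gave p = 0.1, the smallest that 3 against 3 libraries allow. Adjustment over the 64 levels and contrasts tested in this way turned that p into 0.119, so none of them could pass 0.05. The same smallest p holds for the bins and gene-side sets below.

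Directly beside the dense tile, shore tiles averaged 16.9%, 16.9% and 16.7% in the 3 KO libraries, against 15.1%, 16.1% and 16.1% in the 3 WT libraries. The difference of 1.08 points was 0.746 points without WT replicate 1. At distance 2 the libraries averaged 55.3%, 55.1% and 55.1% in KO cells, against 50.5%, 52.8% and 53.1% in WT cells, and the difference of 3.02 points was 2.23 points without WT replicate 1. Again no WT library reached any KO library at either distance. Dense tiles averaged 2.69 ± 0.0117% in KO cells and 2.55 ± 0.0662% in WT cells (SD, n = 3 each), a difference of 0.138 points with no overlap. Tiles with the same number of positions but more than 2 tiles from any dense tile, of which there were 89843, averaged 74.1 ± 0.327% in KO cells and 72.5 ± 0.878% in WT cells (SD, n = 3 each), 1.59 points apart.

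**Figure D1:**
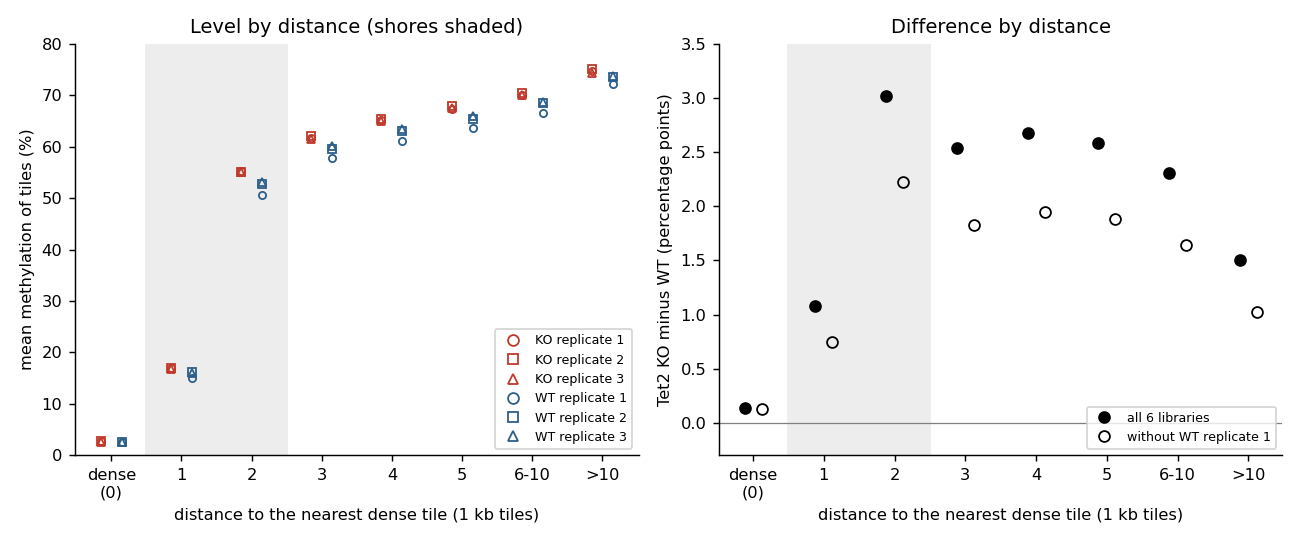
Mean methylation of 1 kb tiles (percent) in each library and the KO minus WT difference (percentage points) against the distance in tiles from the nearest dense tile, with 0 for the dense tiles themselves. The difference is 0.138 points at 0, 1.08 at distance 1 and 3.02 at distance 2. It is 2.54, 2.68, 2.59 and 2.31 points at distances 3, 4, 5 and 6 to 10, and 1.51 beyond distance 10. The KO libraries lie above the WT libraries at each distance.

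The change of the difference with distance was itself tested, per library, as a contrast between the tile sets. The level at distance 2 exceeded that at distance 1 by 38.4, 38.1 and 38.4 points in the KO libraries, against 35.5, 36.6 and 37.0 points in the WT libraries. The step was thus 1.94 points steeper in KO cells (exact permutation p = 0.1), and 1.48 points steeper without WT replicate 1. The contrast of shore with dense tiles was 1.45 points and that of distance 2 with the farther tiles was 1.43 points, both without overlap (exact permutation p = 0.1 each). At distance 3 the difference was 2.54 points. Distance 2 exceeded it by 0.483 points with overlapping libraries (exact permutation p = 0.2), so these distances were not told apart. At distances 4, 5 and 6 to 10 the difference was 2.68, 2.59 and 2.31 points. Most farther tiles, 81452, lay beyond distance 10, where it was 1.51 points. For shore tiles as a whole the contrast with the farther tiles was -0.00834 points, with overlapping libraries (exact permutation p = 1). Distance 1 taken alone differed by 0.511 points less than the farther tiles, again without overlap (exact permutation p = 0.1).

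Position by position, the rise away from the dense tile was steep in both genotypes. Within 200 bp of the edge the covered positions averaged 5.62% in KO cells and 5.23% in WT cells, a difference of 0.391 points. At 601 to 800 bp they averaged 35.6% in KO cells and 33.3% in WT cells, 2.30 points apart. The difference was largest, 3.05 points, at 1201 to 1400 bp, where KO cells averaged 50.1% and WT cells 47.1%. It stayed between 2.5 and 2.85 points from there to 2000 bp. Each of the 10 bins had all KO libraries above all WT libraries.

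**Figure D2:**
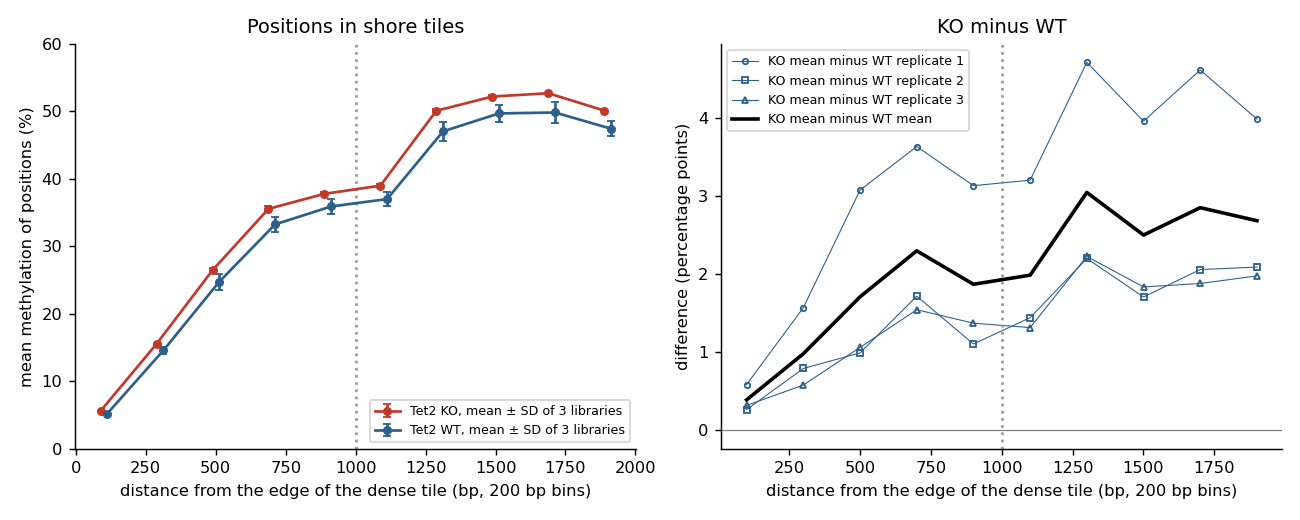
Mean methylation of covered positions in shore tiles (percent, left) and the KO minus WT difference (percentage points, right) in bins of 200 bp from the edge of the nearest dense tile. Points on the left are means with SD of 3 libraries, and thin lines on the right set the KO mean against each WT library. The difference is 0.391 points in the first bin and reaches 3.05 points at 1201 to 1400 bp.

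Shores on the same side of the same dense tile allowed distance to be compared at matched places, in 484 pairs of one tile at distance 1 and one at distance 2. The nearer tile of the pair averaged 22.2% in KO cells and 20.9% in WT cells, and the farther one 53.3% in KO cells and 50.8% in WT cells. The contrast was 1.23 points with no overlap (exact permutation p = 0.1), and 0.953 points without WT replicate 1. Libraries overlapped at a coverage minimum of 20 reads, with 0.857 points, and without KO replicate 1, with 1.10 points (exact permutation p = 0.2 each). Many near tiles were close to 0% in every library. In the 197 pairs whose tiles both had a mean of 5% to 95% over the 6 libraries, the near tile averaged 40.9% in KO cells and 38.3% in WT cells, and the far tile 66.6% in KO cells and 63.9% in WT cells. There the differences were 2.56 points near and 2.78 points far, and their contrast of 0.224 points lay within the spread between libraries (exact permutation p = 0.6). Without WT replicate 1 it was 0.399 points. The difference was larger at distance 2 in 96 of these 197 pairs.

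The mix of methylation states differed between the distances. Over all shore tiles 2612, or 49.2%, had a mean below 5%, 978 had a mean of 20% to 80%, and 82 exceeded 95%. At distance 1, 60.3% were below 5% and the median level was 2.23%. At distance 2, 17.6% were below 5% and the median was 66.8%. Dense tiles were below 5% in 90.4% of cases, and the median of the farther tiles was 86.9%. Shores spanned unmethylated and methylated DNA.

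Among partly methylated shore tiles, those at 20% to 80%, the level was 53.4%, 52.7% and 52.6% in the KO libraries, against 45.1%, 49.2% and 49.8% in the WT libraries. The difference of 4.87 points was 3.40 points without WT replicate 1 over the same tiles. It was 4.25 points in the 583 tiles at distance 1, or 2.80 without WT replicate 1, and 5.78 points in the 395 tiles at distance 2, a contrast of 1.53 points without overlap (exact permutation p = 0.1). Farther tiles in the same class differed by 3.71 points. The shore contrast with them was 1.16 points with overlapping libraries (exact permutation p = 0.2) and 0.603 points without WT replicate 1, while distance 2 alone gave 2.07 points without overlap (exact permutation p = 0.1).

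Finer classes showed that shores differed more than farther tiles between 60% and 95%, and less below 40%, but below 20% only at distance 1. At 60% to 80%, 374 shore tiles averaged 73.8 ± 0.321% in KO cells and 67.9 ± 2.65% in WT cells (SD, n = 3 each), a difference of 5.91 points, against 3.13 points in the farther tiles. At 80% to 95% the difference was 2.71 points in 766 shore tiles and 1.08 points in the farther tiles. Neither contrast, 2.78 and 1.63 points, had overlapping libraries (exact permutation p = 0.1 each). Below 40% the shores of both distances together differed less than the farther tiles, also without overlap (exact permutation p = 0.1 each). The gap was 0.145 points at 0% to 5%, 0.750 points at 5% to 20% and 1.05 points at 20% to 40%. In the lower 2 of these classes distance 1 differed by 0.135 and 1.07 points. Distance 2 differed there by 0.295 and 2.35 points, against 0.294 and 2.10 points in the farther tiles. At 40% to 60% the contrast of 0.552 points lay within the spread between libraries (exact permutation p = 0.6) and was -0.063 points without WT replicate 1. At 95% to 100% it was 0.0876 points, again within the spread (exact permutation p = 0.7). Without WT replicate 1 the farther tiles at 80% to 95% differed by 0.653 points. The classes were cut on the mean of all 6 libraries, so tiles that differ strongly are drawn towards the middle classes.

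**Figure D3:**
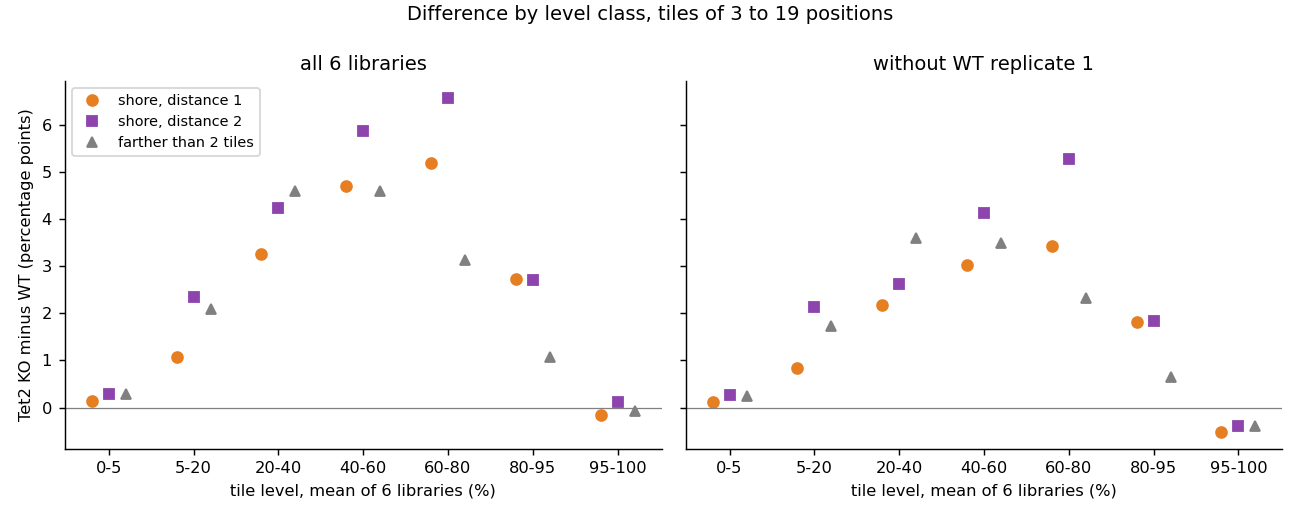
KO minus WT difference (percentage points) for shore tiles at distance 1, shore tiles at distance 2 and farther tiles with 3 to 19 positions, by class of mean methylation over all 6 libraries (percent), with all libraries (left) and without WT replicate 1 (right). At 60% to 80% the difference is 5.19 points at distance 1, 6.58 points at distance 2 and 3.13 points in farther tiles.

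Shores on either side of gene starts differed in the same direction. Upstream of the nearest protein-coding start within 3 kb, 1645 shore tiles averaged 23.6% in KO cells and 22.1% in WT cells. Downstream, 2038 tiles averaged 26.4% in KO cells and 24.7% in WT cells. The differences, 1.46 and 1.71 points, were not told apart (exact permutation p = 0.3 for the contrast of 0.243 points, which was 0.0957 without WT replicate 1). At distance 2 they were 2.71 points upstream and 3.67 points downstream, with a contrast of 0.957 points and overlapping libraries (exact permutation p = 0.2), or 0.599 points without WT replicate 1. The 894 shore tiles that held part of a promoter window averaged 8.09% in KO cells and 7.49% in WT cells, 0.597 points apart. The 4412 without one were 1.78 points apart, and they include the 138 of chromosome 18, for which no windows were listed.

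The dense tile itself was below 5% for 4744 shore tiles, and these averaged 25.1% in KO cells and 23.5% in WT cells. For 61 shore tiles the dense tile was above 80%, and these averaged 86.4% in KO cells and 83.7% in WT cells. The differences were 1.55 and 2.76 points. Tiles near a dense one with 17 to 19 positions averaged 8.19% in KO cells and 7.67% in WT cells, and those just outside, with 20 to 22 positions, averaged 6.53% in KO cells and 6.22% in WT cells. Tiles that just counted as dense, with 40 to 44 positions, averaged 4.38% in KO cells and 4.19% in WT cells, and those just short of it, with 35 to 39, averaged 4.92% in KO cells and 4.69% in WT cells.

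Single shore tiles were then tested for a difference between KO and WT cells. Each tile with a mean of 5% to 95% was fitted with a logistic model of its methylated and unmethylated reads. The spread of each tile between libraries was drawn towards a value common to all tested tiles of the genome. A tile was called at a Benjamini-Hochberg adjusted p below 0.05, over all 83114 tiles tested, with group means at least 10 points apart. Of 2612 shore tiles tested, 32 were called higher in KO cells, or 1.23%, beside 0.685% of all tiles tested. None was called lower, beside 0.00241% of all tiles tested, and 411 shore tiles, or 15.7%, had an unadjusted p below 0.05 in either direction, beside 11.5% of all tiles tested. Of the calls, 12 of 1530 tested were at distance 1, or 0.784%, and 20 of 1082, or 1.85%, were at distance 2. Every KO library lay above every WT library in 457 tested shore tiles, or 17.5%, beside 12.7% of all tiles tested, and below in 42, or 1.61%, beside 3.54%. The KO mean was the higher one in 72.2% of tested shore tiles and in 64.0% of all tiles tested. The median difference was 2.09 points in shores and 1.28 points in all tiles. Of all tiles tested, 69171 had 3 to 19 positions and lay beyond distance 10. Such tiles at distances 3, 4 and 5 gave shares much like those of shores. The KO mean was the higher one in 74.8%, 75.2% and 73.8% of them, with medians of 2.38, 2.32 and 2.30 points. An unadjusted p was below 0.05 in 16.1%, 15.2% and 17.1%. Every KO library lay above every WT library in 19.3%, 17.1% and 20.1%. Called higher were 7 of 907, 12 of 901 and 9 of 897 tested.

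The count of calls rests on the test and on the libraries. With limma on log2 ratios, with an unmoderated spread, or with all covered tiles tested, 0 shore tiles were called, while 283, 296 and 523 had an unadjusted p below 0.05. These settings called 0.0%, 0.0% and 0.00705% of all tiles higher. Leaving out one library at a time gave 6 to 65 calls. The lowest count was without KO replicate 3, beside 0.187% of all tiles, and the highest without WT replicate 3, beside 1.39%. Without WT replicate 1 there were 11, beside 0.253% of all tiles.

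The 32 called shore tiles differed by 10.8 to 30.7 points, with a median of 19.6. Their median level was 70.4% in KO cells and 48.2% in WT cells. WT libraries spread more than KO libraries in these tiles, with a median SD of 2.97 points in KO cells and 5.12 points in WT cells. WT replicate 1 was the lowest library in 25 of the 32. They held 275 covered positions, of which 253 were higher in KO cells. Within 22 of the tiles each position was higher in KO cells. These counts are no separate support, since the tiles were called on the same reads, and neighbouring positions are not independent. The same holds for the position counts of single tiles below.

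**Figure D4:**
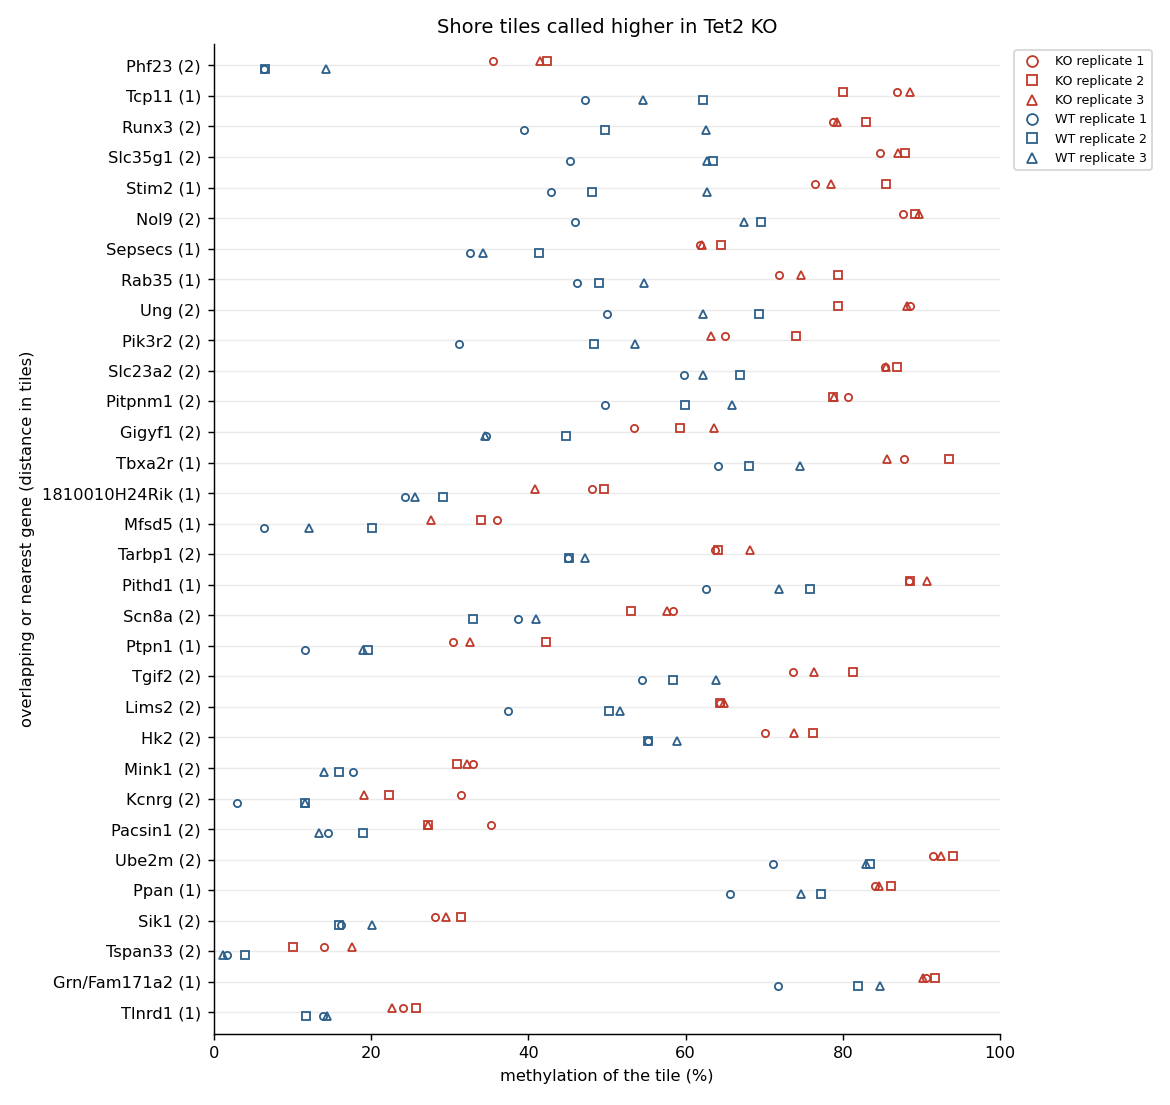
Methylation (percent) of each of the 32 called shore tiles in the 3 KO and 3 WT libraries, named by the overlapping or nearest gene with the distance in tiles, sorted by the KO minus WT difference. In each tile the KO libraries lie above the WT libraries, by 30.7 points on average for Phf23 at the top and 10.8 points for Tlnrd1 at the bottom.

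The tiles at Phf23, Runx3 and Slc35g1 were called whichever of the 6 libraries was left out, and each other called tile lost its call without at least 1 of them. The widest difference of the 32 was at Phf23, which encodes a PHD-finger protein that binds methylated lysine of histone H3. Its shore tile (chromosome 11, 69999001 to 70000000, distance 2) was methylated at 35.5%, 42.4% and 41.5% in the KO libraries, against 6.44%, 6.48% and 14.3% in the WT libraries. The groups were 30.7 points apart without overlap (adjusted p = 0.00592), and the WT mean of 9.09% was low for a called tile. All 5 covered positions were higher in KO cells, and they lay 1815 to 1948 bp from the edge of the dense tile that holds the printed Phf23 start. The next tile outward, with 19 positions, was unmethylated in both groups, at 0.126% in KO cells and 0.0258% in WT cells. The tile also lay upstream of Dvl2, which encodes a Wnt signalling adaptor and starts 592 bp beyond the tile.

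Runx3 encodes a Runt-domain transcription factor of lymphocyte differentiation. Its called shore tile (chromosome 4, 135155001 to 135156000, distance 2), inside the gene and downstream of the printed start, was methylated at 78.8%, 83.0% and 79.3% in the KO libraries, against 39.5%, 49.7% and 62.6% in the WT libraries. The groups did not overlap, although the WT libraries were spread over a wide range, and the difference was 29.8 points (adjusted p = 0.00674). All 19 covered positions were higher in KO cells, by 19.8 to 50.2 points. The dense tile was at 0.337% in KO cells and 0.339% in WT cells. The tile between them was at 28.2% in KO cells and 18.6% in WT cells and was not called (adjusted p = 0.437). The next tile outward was called too, at 76.8% in KO cells and 48.4% in WT cells. On the other flank, upstream of the printed start, the tile at distance 1 was at 90.9% in KO cells and 91.0% in WT cells, and the one at distance 2, too low to be tested, was at 1.97% in KO cells and 2.09% in WT cells.

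Slc35g1 encodes a membrane protein of the solute carrier families. Its shore tile (chromosome 19, 38394001 to 38395000, distance 2) lay 980 bp upstream of the gene. The level was 84.7%, 88.0% and 87.0% in the KO libraries, against 45.3%, 63.5% and 62.7% in the WT libraries. The lowest KO library was well above the highest WT library, with a mean difference of 29.4 points (adjusted p = 0.00612). The printed Slc35g1 start lies in the tile between this one and the dense tile. That tile has 18 positions, so it is itself a shore tile at distance 1. The 18 covered positions of the printed window averaged 0.473% in KO cells. The WT libraries had no methylated read among 2298 there, which allows a level of up to 0.131%.

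**Figure D5:**
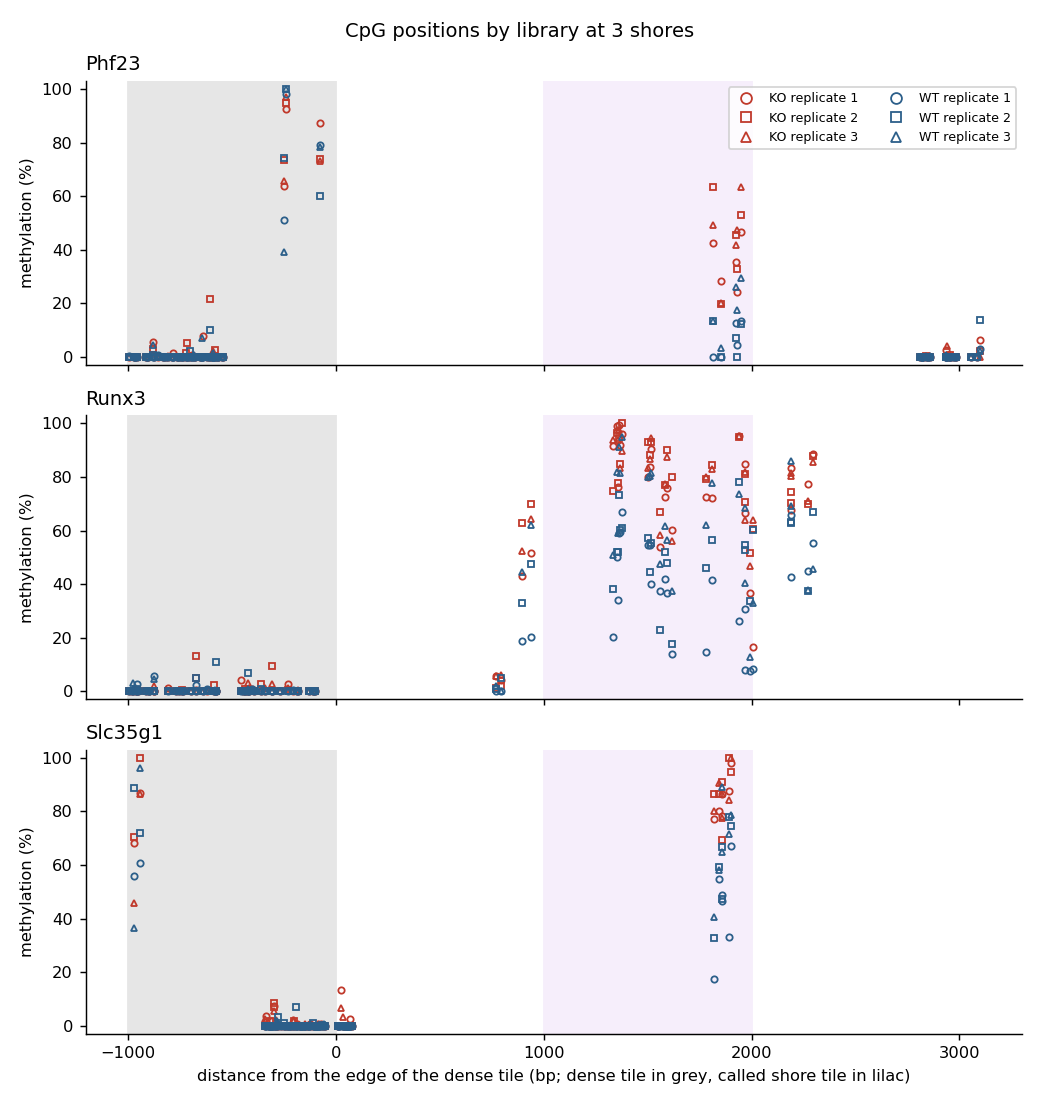
Methylation (percent) of each covered position in each of the 3 KO and 3 WT libraries against distance in bp from the edge of the dense tile (grey), at the 3 shores called whichever library was left out (called tile in lilac). Most positions of the dense tile are near 0% in both genotypes, and all 5, 19 and 6 positions of the called Phf23, Runx3 and Slc35g1 tiles have a higher mean in KO cells.

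Ung, Stim2 and Rab35, whose starts are printed above, had called tiles too. Ung encodes the uracil-DNA glycosylase that removes the uracils made by AID in germinal centre B cells. Its tile (chromosome 5, 114132001 to 114133000, distance 2), inside the gene, was at 88.5%, 79.3% and 88.2% in the KO libraries, against 50%, 69.3% and 62.2% in the WT libraries. The groups did not overlap and were 24.8 points apart (adjusted p = 0.0203). Stim2 encodes an endoplasmic reticulum calcium sensor that opens store-operated calcium channels, which act downstream of the B-cell receptor. Its tile (chromosome 5, 53997001 to 53998000, distance 1), 523 bp upstream of the gene, was at 76.5%, 85.4% and 78.5% in the KO libraries, against 42.9%, 48.2% and 62.7% in the WT libraries. That was a difference of 28.9 points without overlap (adjusted p = 0.0260). Rab35 encodes a small GTPase of endocytic recycling. Its tile (chromosome 5, 115630001 to 115631000, distance 1) was at 71.9%, 79.4% and 74.6% in the KO libraries, against 46.1%, 49.0% and 54.8% in the WT libraries, 25.4 points apart (adjusted p = 0.00891). It lost its call without KO replicate 3. The Ung tile lost its call without KO replicate 1, KO replicate 3 or WT replicate 1, and the Stim2 tile without any KO replicate or WT replicate 1.

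The rest of the 12 called tiles with the widest differences lay inside a gene or within 275 bp of one. Tcp11, a gene of sperm function, had a tile at distance 1 with 85.2 ± 4.52% in KO cells and 54.7 ± 7.45% in WT cells (SD, n = 3 each, as for the tiles that follow). Sepsecs, which encodes an enzyme of selenocysteine synthesis, had one at distance 1 with 62.8 ± 1.44% in KO cells and 36.1 ± 4.64% in WT cells. Nol9, which encodes a kinase of ribosomal RNA processing, had one at distance 2 with 88.8 ± 1.04% in KO cells and 61.0 ± 13.1% in WT cells, where the WT libraries were at 46.0%, 69.6% and 67.5%. Inside genes at distance 2, Pik3r2, a regulatory subunit of phosphoinositide 3-kinase, rose by 23.1 points in KO cells, Slc23a2, an ascorbate transporter, by 22.9 points and Pitpnm1, a phosphatidylinositol transfer protein, by 20.9 points (adjusted p = 0.0405, 0.0426 and 0.0151). Each of these 6 tiles lost its call when any one KO library was left out. Those at Tcp11, Sepsecs, Pik3r2 and Slc23a2 also lost it without WT replicate 1, and the Pik3r2 tile without WT replicate 2.

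The remaining called tiles rose by 10.8 to 20.8 points in KO cells, and those described here were chosen after their values were seen. Ptpn1, which encodes a protein tyrosine phosphatase, had a tile at 35.1 ± 6.33% in KO cells and 16.7 ± 4.42% in WT cells. Hk2, which encodes hexokinase 2, had one at 73.4 ± 3.10% in KO cells and 56.5 ± 2.10% in WT cells, which lost its call whichever library was left out (adjusted p = 0.0509 to 0.216, beside 0.0477 with all) and with the replicate number as a block (adjusted p = 0.0505). Tspan33, which encodes a tetraspanin of activated B cells, had one at 13.9 ± 3.75% in KO cells and 2.25 ± 1.5% in WT cells, the lowest means of the 32 in both groups. The Tspan33 call was lost without KO replicate 1, 2 or 3, WT replicate 1 or WT replicate 3. The Ptpn1 call was lost without KO replicate 2 or WT replicate 1. Tbxa2r, the thromboxane receptor gene, was an exception to the usual setting, since the dense tile beside its called tile was itself methylated, at 96.0% in KO cells and 93.6% in WT cells. The dense tile was below 5% in both groups for 28 of the 32.

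Dense tiles beside the called shores differed by -0.346 to 4.73 points, with a median of 0.0672. Where a called tile at distance 2 had a covered tile in between, as 9 did, that tile differed by -0.285 to 9.59 points and 0 were called. The next tile outward was covered for 4 called tiles, and 1 of these, at Runx3, was called. At Tbxa2r it was at 52.4% in KO cells and 35.8% in WT cells and was not called. Of the 32, 22 overlapped a gene, or 1.15% of the 1905 tested shore tiles that did, beside 1.41% of the 707 outside genes. Downstream of a start within 3 kb 10 were called, or 1.03% of 972 tested, and upstream 12, or 1.69% of 711. Of the 202 tested shore tiles that held part of a promoter window, 1 was called, or 0.495%. Of the 2410 without one 31 were called, or 1.29%, beside 0.685% of all tiles tested. These 2410 include the 54 tested on chromosome 18, for which no windows were listed.

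Genes of B-cell and other programmes were read from 13 lists, with a shore tile assigned to a listed gene within 5 kb. Few of the listed genes had a tested shore tile. In the germinal centre list 3 shore tiles were tested and 0 called, with a median difference of 10.5 points. The tile at Mef2b, which encodes a transcription factor that drives Bcl6, was at 70.3%, 70.8% and 66.7% in the KO libraries, against 47.1%, 44.1% and 48.0% in the WT libraries. These groups were 22.8 points apart without overlap, yet the tile missed the threshold (adjusted p = 0.166) on 3 positions and 102 to 310 reads. In the list of naive and follicular B cells 2 tiles were tested and 0 called. These were beside Klf2, a transcription factor of lymphocyte quiescence and trafficking, with a difference of 7.44 points (adjusted p = 0.215), and Bach2, a repressor of plasma cell differentiation, with 6.78 points (adjusted p = 0.331).

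In the B-cell receptor, CD40 and NF-kB list 4 shore tiles were tested and 0 called, with a median of 2.23 points. The smallest p was at Nfkbia, the NF-kB inhibitor, with 8.84 points (adjusted p = 0.219). The plasma cell list had 1 tested tile, at Sdc1, the syndecan that marks plasma cells, with 0.606 points (adjusted p = 0.996). The cell cycle list had 3 tested and 0 called, with a median of 4.46 points and the smallest p at E2f2, a transcription factor of the cell cycle (adjusted p = 0.611), and antigen presentation had a single shore tile, which was not tested.

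Polycomb-bound developmental regulators, whose islands are broad, gave the largest group, with 46 shore tiles and 31 tested. None was called, and the KO mean was higher in 22, beside 72.2% of all tested shore tiles. The median difference was 1.74 points, beside 2.09 over all tested shore tiles and 1.28 over all tiles tested. The tile beside Six2, a homeobox gene of kidney development, had the smallest p with 3.18 points (adjusted p = 0.0992).

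Lists of other cell types that a spleen sort could hold were looked at in the same way. The T-cell list had 9 tested shore tiles with a median of -0.168 points, and the 1 called was the Runx3 tile. The myeloid list had 3 tested and 0 called, with a median of 0.156 points and the smallest p at Cebpb, a transcription factor of myeloid cells, at 7.16 points (adjusted p = 0.654). The erythroid list had 1 tested, with 2.26 points (adjusted p = 0.776). That tile lay within 5 kb of Klf1, a transcription factor of red cell development, but its nearest gene was Dnase2a, 755 bp away. The natural killer list had a single shore tile, which was not tested, and the endothelium list had none.

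The list of methylation machinery, which also holds the uracil-DNA glycosylase gene Ung, had 10 shore tiles. Of these, 4 were tested and 1, at Ung, was called. Dnmt3b, which encodes a de novo DNA methyltransferase, had the opposite sign. Its tile (chromosome 2, 153648001 to 153649000, distance 1), 411 bp upstream of the gene, was at 85.3%, 87.3% and 80.8% in the KO libraries, against 90.8%, 94.3% and 92.4% in the WT libraries. The groups did not overlap, but the difference of -8.03 points did not pass the test (adjusted p = 0.349). Tet3, which encodes a related dioxygenase, had 2 tested tiles, with 6.35 points (adjusted p = 0.570) and 4.77 points (adjusted p = 0.693), and overlapping libraries in both. Pax5, which encodes the factor that maintains B-cell identity, had 2 shore tiles, both too low to be tested. The one at distance 1 was at 0.486% in KO cells and 0.418% in WT cells, and the one at distance 2 was at 1.51%, 3.43% and 3.20% in the KO libraries with no methylated read in any WT library. The 466 to 565 reads of the WT libraries allow levels of up to 0.531% to 0.644% each, for counting error.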

How the data were processed

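DNA methylation was measured in 6 libraries of splenic germinal centre B cells, 3 Tet2 KO and 3 Tet2 WT, grouped by the genotype label. Reads were aligned with Bismark to GRCm38, per the submitters' processing notes. The Bismark version and any removal of PCR copies are not stated by the labels. For every CpG on either strand the deposited files hold a coverage count, at least 10, and the percent of C and of T calls, as named in the file headers by the authors. A CpG read on both strands counts as 2 positions.

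Methylated and unmethylated counts were recovered from coverage and percent, and each came out within 0.0005 percentage points of a whole read. Reads of another base, 0.0172% to 0.0189% per library, were left out. Of 2029165 listed positions, 1463044 were shared by the 6 libraries, whose mean coverage was 101 to 125 reads over the positions each library lists. Limits for a level of 0 use 3 reads and cover counting error only. The level of a tile is the sum of methylated reads over all reads in it, and the level of a set of tiles is the unweighted mean over them.

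Tiles with a mean of 5% to 95% were fitted with a quasi-binomial logistic model. Its dispersion was moderated across the tested tiles in the way of limma's squeezeVar (numpy 2.4.6, scipy 1.17.1, with limma 3.58.1 in R 4.3.3). The p-values were adjusted by the Benjamini-Hochberg method over all 83114 tiles tested. All single-tile p-values come from this fit across all tested tiles. The method was also run on simulated tiles that all shared a common dispersion, which is no check of the calls made here. Set means and contrasts used exact two-sided permutation tests. Alternatives changed the coverage minimum, the dense limit, the tested range, the test, the moderation, the replicate block, the minimum difference, the most covered positions, the averaging within a tile and each library in turn.

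The tiles named are the 12 called ones with the widest differences, up to 3 called tiles per gene list within 5 kb of a listed gene, or else the tile of lowest p, and tiles at 18 listed B-cell and methylation genes, of which 5 had a shore tile. The tile set and the lists were chosen with earlier results of these data known. Gene positions and promoter windows are those of RefSeq for GRCm38.p6. No promoter windows were listed for chromosome 18, so its 138 shore tiles have no gene side and count as tiles without a window.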

Additional observations from a re-analysis of the deposited data

How the results depend on the processing

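The 9 mean levels and contrasts of shore sets kept their sign in 86 of 90 values under alternatives, and the exceptions belong to the contrast of all shore tiles with the farther tiles, which lies near 0 (-0.115 to 0.152 points). With one library left out at a time, the KO minus WT difference was 1.13 to 1.82 points over all shore tiles, 0.746 to 1.27 at distance 1 and 2.23 to 3.5 at distance 2. The contrasts were 1.48 to 2.27 points for distance, 0.953 to 1.46 for pairs, 1.0 to 1.71 against dense tiles, 3.33 to 5.72 for the partly methylated level and 0.580 to 1.49 for its contrast with farther tiles. The 32 shore tiles called higher became 21 with a dense limit of 50 positions, 0 with all covered tiles tested, 0 with limma on log2 ratios and 0 with an unmoderated dispersion. In the whole table those last 3 settings called 8, 0 and 0 tiles higher. Leaving out one library gave 6 to 65 calls, of which 6 to 29 were among the 32, and 11 without WT replicate 1. No setting called a shore tile lower. Deviations of same-numbered KO and WT libraries hardly correlated (0.0335, 0.0275 and 0.00456), which cannot settle whether the replicates were paired. With the replicate block 47 shore tiles were called higher, 31 of them among the 32. The share of all tiles called higher was 1.07% with the block and 0.685% without. Shore tiles had a median of 715 to 885.5 reads per library, and the Mef2b tile 102 to 310. The causes of these changes were not tested.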

Other observations

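The KO mean of shore tiles was the higher one on 19 of 19 autosomes, by 0.864 to 1.96 points with a median of 1.56. On the X chromosome, outside the autosomal definition, 86 tiles met the same limits. They averaged 14.7%, 14.3% and 14.5% in the KO libraries, against 13.3%, 14.9% and 14.5% in the WT libraries. The groups overlapped there, the means were 0.275 points apart, and 24 tiles were tested with 0 called.

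Over the tested shore tiles the KO libraries were more alike than the WT libraries. The mean Pearson r between pairs of libraries was 0.984 within KO, 0.968 within WT and 0.970 between KO and WT, across tiles, which are not independent replicates.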
